A study of Mus musculus with 12 samples.

Results

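The circadian clock genes described here are *Clock*, *Arntl*, *Per1*, *Per2*, *Cry1*, *Cry2*, *Nr1d1*, *Nr1d2*, *Dbp* and *Bhlhe40*, a list of names with no threshold on a measured value. All 10 had a row among the 15651 Ensembl genes of the table, and all 10 passed the filter on low values in every comparison below. RNA was sequenced from leukemic spleen cells enriched for the receptor c-Kit, taken at moribundity from 3 mice of each of the *D/F* and *T/F* models of acute myeloid leukemia (AML). *D/F* mice carried *Dnmt3a* fl/fl with *Flt3* ITD/ITD and Mx1Cre, and *T/F* mice carried *Tet2* fl/fl with the same *Flt3* alleles and the same Cre. Mx1 is an interferon-responsive promoter, no inducer was given, and leaky Cre left cells with 1 or both floxed alleles deleted. Each mouse gave cells for both treatments, CCS1477, an inhibitor of the p300 and CBP bromodomains, and the vehicle DMSO, for 6 hours in medium with SCF, IL6 and IL3, which gave 12 libraries in 4 groups of 3. CCS1477 was used at 4 μM in *D/F* cells and at 2 μM in *T/F* cells, so genotype and dose cannot be told apart in any difference between the responses. No library came from cells without the *Flt3* duplication, and the ages of the mice and the time of day at which spleens were taken are not given in the sources used here.

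The clock of a mammalian cell is a feedback loop of transcription. CLOCK and BMAL1, the product of *Arntl*, bind E-boxes as a pair and drive the *Per*, *Cry*, *Nr1d* and *Dbp* genes, and PER and CRY proteins return to the nucleus and repress the pair. REV-ERBα (*Nr1d1*) and REV-ERBβ (*Nr1d2*) repress *Arntl* through ROR elements, where ROR receptors activate, while DBP acts on D-boxes and BHLHE40 competes at E-boxes. p300 and CBP are known as coactivators of the CLOCK and BMAL1 pair, and hematopoietic stem and progenitor cells are known to carry a clock that follows the light cycle of the animal.

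Expression is given as TPM, an abundance normalized for transcript length and relative to all transcripts of a library, so a lower value in bulk RNA cannot separate fewer cells of a type from less RNA per cell. The libraries summed to 914204 to 931697 TPM and the number of reads behind a value is unknown. *Dnmt3a* overlapped between the genotypes with DMSO, at 29.3 to 55.7 TPM in *D/F* and 39.9 to 53.9 TPM in *T/F*, whereas *Tet2* was 38.3 to 43.4 TPM in *D/F* and 30.0 to 35.8 TPM in *T/F*. All 7 leukemic progenitor markers had a row, with *Kit* at 22.8 to 149 TPM, although *Ptprc*, which encodes CD45, was only 0.826 to 3.11 TPM. Among the defining lymphoid, erythroid, macrophage and stromal markers, *Cd79a*, *Ms4a1*, *Cd3e*, *Cd3g*, *Hba-a1*, *C1qa*, *Col1a1* and *Cdh5* had no row. Other markers of these lists had one. Over all libraries the summed T cell markers, 2 of 4 with a row, were 10.5 to 37.3 TPM. The summed erythroid markers, 3 of 4 with a row, were 1.34 to 12.9 TPM, and the B cell marker *Pax5* was 0.368 to 2.38 TPM. The mouse called *D/F* replicate 2 stood apart, with the highest DMSO level of the 6 mice in 50.6% of 15219 genes, and values that rest on it are given with and without it.

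Promoter windows of the members were searched for elements known from the feedback loop. RefSeq windows of GRCm38.p6, from 250 bases before to 50 bases after a transcription start, matched 8 of the 10 members in 12 windows, without *Per2* and *Bhlhe40*. The letters searched on both strands were CACGTG (E-box), CACGTT (a variant E-box), TAGGTCA and TGGGTCA (cores of the ROR element), TTATGTAA and TTACGTAA (D-box) and TGACGTCA (cAMP response element). Of 32817 mouse promoter windows, 7.15% held CACGTG, 4.69% CACGTT, 2.61% TAGGTCA, 3.98% TGGGTCA, 0.935% TTATGTAA, 0.119% TTACGTAA and 1.79% TGACGTCA. Windows with a match are printed for a member that was higher with CCS1477 (*Arntl*), for 2 repressors with different responses (*Cry1* and *Per1*) and for the member with the largest fall (*Nr1d1*), 5′ to 3′ on the strand of the gene, with matches in capitals.
Arntl, chr7:113207261-113207560, plus strand: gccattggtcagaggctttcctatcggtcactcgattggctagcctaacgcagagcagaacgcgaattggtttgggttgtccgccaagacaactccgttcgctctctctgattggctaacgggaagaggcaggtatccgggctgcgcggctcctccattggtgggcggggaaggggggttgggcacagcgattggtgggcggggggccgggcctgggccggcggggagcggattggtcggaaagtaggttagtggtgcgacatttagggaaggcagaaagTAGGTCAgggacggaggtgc
Cry1, chr10:85185005-85185304, minus strand: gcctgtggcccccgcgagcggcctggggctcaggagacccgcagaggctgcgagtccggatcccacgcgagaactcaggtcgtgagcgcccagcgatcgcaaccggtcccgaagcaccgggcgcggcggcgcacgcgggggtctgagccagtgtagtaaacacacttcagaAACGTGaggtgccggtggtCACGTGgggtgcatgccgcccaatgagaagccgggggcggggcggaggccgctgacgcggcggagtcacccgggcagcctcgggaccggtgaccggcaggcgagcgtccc
Nr1d1, chr11:98775328-98775627, minus strand: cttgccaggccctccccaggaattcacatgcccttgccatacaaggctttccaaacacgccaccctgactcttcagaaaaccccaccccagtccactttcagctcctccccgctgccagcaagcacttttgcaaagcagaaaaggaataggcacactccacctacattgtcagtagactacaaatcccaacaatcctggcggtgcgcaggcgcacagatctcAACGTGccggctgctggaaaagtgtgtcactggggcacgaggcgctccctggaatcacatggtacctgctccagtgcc
Per1, chr11:69098699-69098998, plus strand: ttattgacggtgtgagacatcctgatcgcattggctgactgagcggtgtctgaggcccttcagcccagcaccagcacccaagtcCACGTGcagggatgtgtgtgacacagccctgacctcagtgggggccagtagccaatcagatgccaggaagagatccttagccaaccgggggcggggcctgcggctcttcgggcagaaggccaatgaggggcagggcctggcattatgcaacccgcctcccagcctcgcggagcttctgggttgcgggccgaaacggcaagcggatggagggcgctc
The *Arntl* window held TAGGTCA at position 31 after the start. The *Cry1* window held CACGTG 60 bases before the start and CACGTT, read on the opposite strand as AACGTG, 79 bases before it. *Nr1d1* held CACGTT on the opposite strand 28 bases before the start, *Cry2* held it 166 bases before, and the first *Per1* window held CACGTG 166 bases before. The 3 *Clock* windows, the *Nr1d2* and *Dbp* windows, the other *Arntl* window and the other *Per1* window held none of these letters, and a match is not evidence of binding.

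Over both genotypes, the transcripts of the activator pair rose with CCS1477 while *Per2*, *Nr1d1* and *Bhlhe40* fell and *Cry1* rose. This comparison used limma on log2(TPM + 1) with genotype as a covariate and n = 6 mice per treatment, and 6 of the 10 members passed at an adjusted p under 0.05, 3 higher and 3 lower, against 45.3% of 15583 genes tested (25.8% higher and 19.6% lower). With the mouse as a block, which pairs the DMSO and CCS1477 cells of a mouse, 7 members passed, *Nr1d2* being the addition, against 60.3% of genes (34.5% higher and 25.9% lower). The share of members exceeded that of all genes by fewer than 2 of the 10 members, and the median log2 fold change of the members, 0.08, was close to the 0.07 of all genes tested. Each of *Clock*, *Arntl*, *Cry1* and *Nr1d2* was higher with CCS1477 in 6 of 6 mice, and each of *Per2*, *Nr1d1* and *Bhlhe40* was lower in 6 of 6. How many of all genes had a common direction in 6 of 6 mice was not counted, so these directions are not set apart from those of other genes. In the same libraries the summed macrophage markers, 3 of 4 with a row, were 23.8 to 38.5 TPM with DMSO and 5.64 to 6.41 TPM with CCS1477 in *D/F*, and 46.7 to 73.2 and 10.4 to 20.0 TPM in *T/F*. The summed stromal markers, 2 of 4 with a row, were 94.7 to 161 and 19.7 to 27.8 TPM in *D/F*, and 57.8 to 74.3 and 16.8 to 24.0 TPM in *T/F*. The stromal sum mostly followed 1 gene, *Pecam1*, at 15.1 to 149 TPM over all libraries, beside 0.878 to 11.6 TPM for *Pdgfrb*. Which cells the *Pecam1* RNA came from was not tested, and *Col1a1* and *Cdh5* had no row. The sum is therefore not a measure of stromal cells. *Pecam1* was lower with CCS1477 in 6 of 6 mice without overlap of the treatments. *Pdgfrb* was lower in 5, and its treatments overlapped in both genotypes. The treatments overlapped for the summed level of the 4 neutrophil markers, at 825 to 5160 TPM over all libraries. Of that sum *S100a8* alone was 807 to 4680 TPM, and the 4 genes did not move together. *Ly6g* and *Camp* were lower with CCS1477 in 6 of 6 mice, *S100a8* was lower in 4, and *Ltf* was higher in 5. The summed progenitor markers, of which *Mpo* alone was 277 to 3670 TPM, were 2340 to 4320 TPM with DMSO and 530 to 1790 TPM with CCS1477 in *D/F*, and 1970 to 2750 and 824 to 1340 TPM in *T/F*. *Ptprc* went the other way in *D/F*, at 1.27, 1.62 and 0.826 TPM with DMSO and 2.43, 1.73 and 1.70 TPM with CCS1477. The part of these shifts in the clock gene values was not tested.

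**Figure D1:**
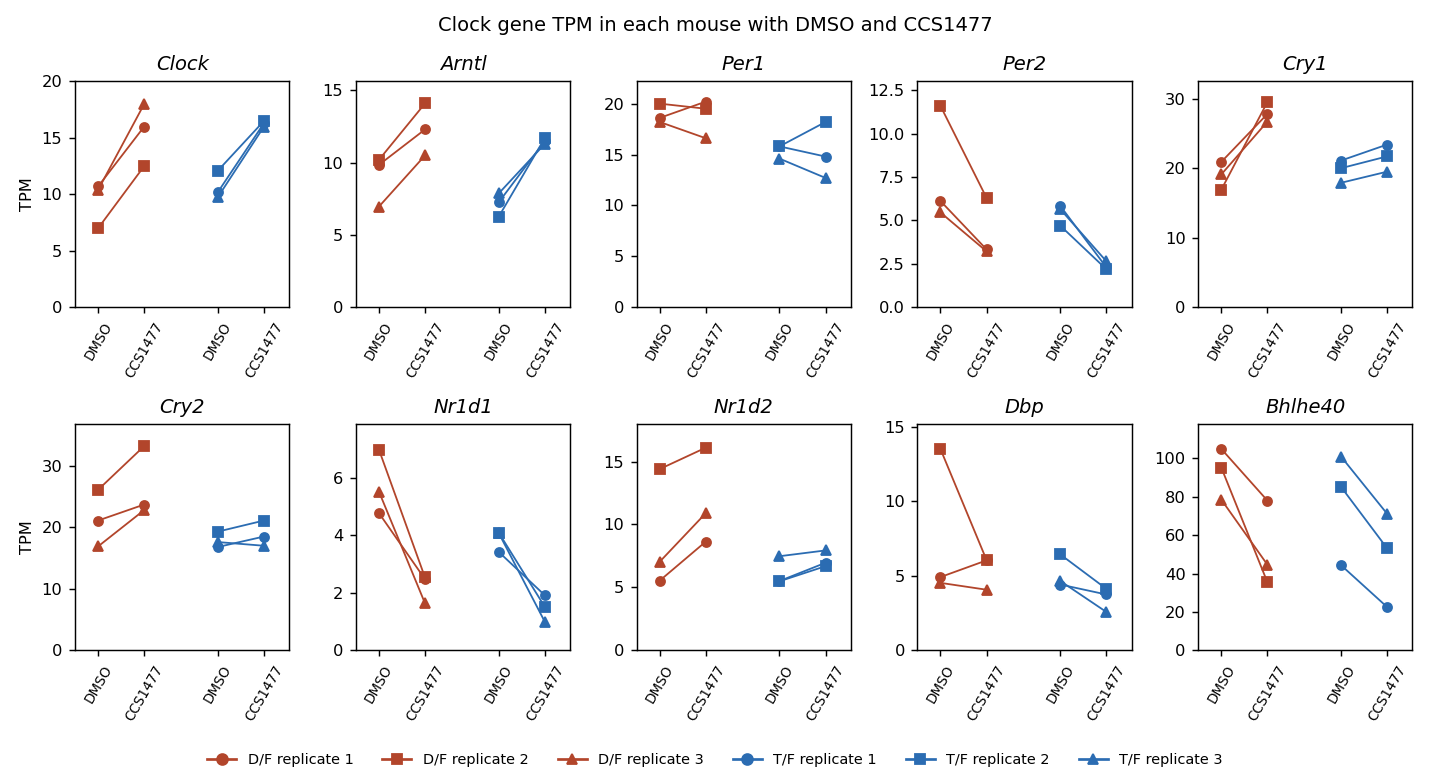
TPM (y axis, linear, from 0) of each clock gene with DMSO and with CCS1477, one panel per gene, with a line for each of 3 *D/F* mice (red) and 3 *T/F* mice (blue). *Clock* and *Arntl* lines climb and *Per2*, *Nr1d1* and *Bhlhe40* lines descend in all 6 mice, and *D/F* replicate 2 (red squares) is highest for *Nr1d2* at 14.4 and 16.1 TPM.

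*Clock* encodes a bHLH-PAS protein, one partner of the activator pair, and lies at chr5:76209868-76304792 on the minus strand of GRCm38. In *D/F* cells it was 10.7, 7.00 and 10.4 TPM with DMSO and 16.0, 12.5 and 18.0 TPM with CCS1477 in replicates 1, 2 and 3. *T/F* cells had 10.2, 12.1 and 9.76 TPM with DMSO and 16.3, 16.5 and 16.0 TPM with CCS1477. The treatments did not overlap in either genotype, and the 3 *T/F* libraries with CCS1477 lay within 0.23 TPM (SD) of a mean of 16.3. The log2 fold change was 0.68 (SE 0.22, limma adjusted p = 0.0975) in *D/F*, which passed with the mouse as a block (adjusted p = 0.0115). It rose in *T/F* by 0.57 (SE 0.09, adjusted p = 0.00437, or 0.00664 with the block). Without the block the *T/F* call was lost without *T/F* replicate 1 (0.54, adjusted p = 0.0577).

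*Arntl*, which encodes BMAL1, lies at chr7:113207465-113314126 on the plus strand. Its *D/F* values were 9.85, 10.2 and 6.96 TPM with DMSO and 12.3, 14.1 and 10.5 TPM with CCS1477. Its *T/F* values were 7.26, 6.26 and 7.87 TPM with DMSO and 11.5, 11.7 and 11.3 TPM with CCS1477. All CCS1477 libraries lay above all DMSO libraries of their genotype, and in *D/F* the lowest CCS1477 value, in replicate 3, was just above the highest DMSO value, in replicate 2. *Arntl* rose in *T/F* by 0.62 on the log2 scale (SE 0.09, limma adjusted p = 0.00306), and in *D/F* the estimate was 0.42 (SE 0.20, adjusted p = 0.213, or 0.0322 with the mouse as a block). Over both genotypes *Clock* rose by 0.62 (SE 0.12, adjusted p = 0.00118) and *Arntl* by 0.52 (SE 0.11, adjusted p = 0.00216).

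Among the PER and CRY repressors, *Per2* was lower and *Cry1* higher with CCS1477 in every mouse, and *Per1* showed no common direction. *Per2*, at chr1:91415982-91459324 on the minus strand, encodes a period protein that brings CRY to the CLOCK and BMAL1 pair. It was 6.12, 11.6 and 5.46 TPM with DMSO and 3.33, 6.30 and 3.22 TPM with CCS1477 in *D/F*. The *T/F* values were 5.84, 4.70 and 5.65 TPM with DMSO and 2.30, 2.19 and 2.65 TPM with CCS1477. The *T/F* groups did not overlap, whereas in *D/F* the CCS1477 library of replicate 2 lay above the DMSO libraries of replicates 1 and 3. The ratio of CCS1477 to DMSO within a mouse was nevertheless narrow, from 0.542 to 0.590 in *D/F* and from 0.394 to 0.469 in *T/F*. *Per2* fell in *T/F* by 0.92 (log2, SE 0.10, limma adjusted p = 0.00135) and over both genotypes by 0.81 (SE 0.18, adjusted p = 0.00367). In *D/F* the log2 fold change was -0.71 (SE 0.34, adjusted p = 0.215), which passed with the mouse as a block (adjusted p = 0.0099) and without replicate 2 (-0.67, adjusted p = 0.0282).

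*Per1*, the other period gene among the members, lies at chr11:69095217-69109960 on the plus strand. It was 18.6, 20.0 and 18.2 TPM with DMSO and 20.2, 19.5 and 16.6 TPM with CCS1477 in *D/F*. The *T/F* mice had 15.8, 15.8 and 14.6 TPM with DMSO and 14.8, 18.2 and 12.7 TPM with CCS1477. It was higher with CCS1477 in 2 mice and lower in 4, and the treatments overlapped in both genotypes. On the log2 scale the change was -0.01 (95% interval -0.37 to 0.34) for *D/F* and -0.02 (95% interval -0.34 to 0.30) for *T/F*, and over both genotypes the interval was -0.21 to 0.17 (limma adjusted p = 0.879).

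*Cry1*, a cryptochrome and strong repressor of the pair, lies at chr10:85131700-85185064 on the minus strand. Its *D/F* values were 20.9, 16.9 and 19.1 TPM with DMSO and 27.8, 29.5 and 26.7 TPM with CCS1477. Its *T/F* values were 21.1, 20.0 and 17.9 TPM with DMSO and 23.4, 21.7 and 19.5 TPM with CCS1477. The *D/F* treatments were well apart, while the *T/F* treatments overlapped although each mouse was higher with CCS1477. The *D/F* log2 fold change was 0.54 (SE 0.15, limma adjusted p = 0.0632, or 0.0275 with the mouse as a block), and that of *T/F* was 0.13 (SE 0.10, adjusted p = 0.343, or 0.0899 with the block). Over both genotypes *Cry1* rose by 0.33 (SE 0.10, adjusted p = 0.017). That call was lost without *D/F* replicate 1 (0.32, adjusted p = 0.0521) or *D/F* replicate 3 (0.31, adjusted p = 0.0623), and when libraries were rescaled to their median gene (0.27, adjusted p = 0.108). Quantile normalization also lost it (0.30, limma adjusted p = 0.0764).

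*Cry2*, the second cryptochrome, lies at chr2:92403646-92434043 on the minus strand. In *D/F* it was 21.1, 26.1 and 16.9 TPM with DMSO and 23.7, 33.2 and 22.8 TPM with CCS1477. Its *T/F* levels were 16.8, 19.3 and 17.6 TPM with DMSO and 18.5, 21.1 and 17.0 TPM with CCS1477. The treatments overlapped in both genotypes, and 5 of 6 mice were higher with CCS1477. Over both genotypes the log2 fold change was 0.19 (SE 0.13, limma adjusted p = 0.258, or 0.0509 with the mouse as a block). The non-coding gene *D930015M05Rik* overlaps *Cry2* over 23417 bases on the opposite strand, and its change was 0.15 on the log2 scale (adjusted p = 0.673) in *D/F* cells and -0.04 (adjusted p = 0.797) in *T/F* cells.

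The REV-ERB receptor genes moved apart, with *Nr1d1* lower and *Nr1d2* higher in all 6 mice. *Nr1d1*, which encodes the repressor REV-ERBα, lies at chr11:98767932-98775333 on the minus strand and was the only member to pass in *D/F* without the block, where 11.6% of 15501 genes passed (5.14% higher and 6.51% lower). Its *D/F* values were 4.78, 6.99 and 5.53 TPM with DMSO and 2.48, 2.54 and 1.64 TPM with CCS1477. Its *T/F* values were 3.43, 4.10 and 4.09 TPM with DMSO and 1.92, 1.52 and 1.00 TPM with CCS1477. The treatments did not overlap in either genotype, and the ratio of CCS1477 to DMSO within a mouse ranged from 0.245 to 0.559. *Nr1d1* fell by 1.07 on the log2 scale in *D/F* (SE 0.20, limma adjusted p = 0.0246), by 0.99 in *T/F* (SE 0.15, adjusted p = 0.00406) and by 1.03 over both (SE 0.12, adjusted p = 5.56e-05). Since the values are low, the pseudocount of 1 TPM made these changes smaller, and with 0.1 TPM the *D/F* value was -1.35 and the *T/F* value -1.37. The *D/F* call was lost without replicate 1 (-1.24, adjusted p = 0.179) or replicate 3 (-0.95, adjusted p = 0.268), where no gene of the table passed, and the *T/F* call without replicate 2 (-0.97, adjusted p = 0.0602).

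*Nr1d1* shares 1075 bases with *Thra*, a thyroid hormone receptor gene on the opposite strand. The library kit was a stranded one by the sample records, but whether the quantification used the strand is not given in the sources used here, so reads of the shared bases may not have been told apart. *Thra* was 37.9 to 46.2 TPM with DMSO and 20.5 to 28.3 TPM with CCS1477 in *D/F*, and it fell by 0.78 on the log2 scale (SE 0.18, limma adjusted p = 0.0392). With *T/F* cells it was 27.7 to 33.8 TPM and 19.5 to 29.4 TPM, a log2 fold change of -0.33 (SE 0.17, adjusted p = 0.158, or 0.029 with the mouse as a block). The part of *Thra* reads in the fall of *Nr1d1* was not tested.

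*Nr1d2*, which encodes REV-ERBβ, lies at chr14:18204054-18239127 on the minus strand. It was 5.54, 14.4 and 7.04 TPM with DMSO and 8.64, 16.1 and 10.9 TPM with CCS1477 in *D/F*. Both *T/F* groups were narrower, with 5.51, 5.49 and 7.48 TPM with DMSO and 6.96, 6.69 and 7.94 TPM with CCS1477. *D/F* replicate 2 with DMSO lay above every other library except its own CCS1477 library, and the treatments overlapped in both genotypes. The log2 fold change over both genotypes was 0.31 (SE 0.21, limma adjusted p = 0.239). It passed with the mouse as a block (adjusted p = 0.0119) and without *D/F* replicate 2 (0.35, adjusted p = 0.034).

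*Dbp*, a D-box activator and a classic output of the clock, lies at chr7:45705088-45710203 on the plus strand. Its *D/F* values were 4.92, 13.5 and 4.53 TPM with DMSO and 6.04, 6.06 and 4.07 TPM with CCS1477. Its *T/F* values were 4.42, 6.44 and 4.66 TPM with DMSO and 3.75, 4.13 and 2.58 TPM with CCS1477. One mouse, *D/F* replicate 1, was higher with CCS1477 and the other 5 were lower, and the *T/F* treatments did not overlap. The *T/F* log2 fold change was -0.46 (SE 0.18, limma adjusted p = 0.0902, or 0.0318 with the mouse as a block). In *D/F* it was -0.30 (SE 0.40, adjusted p = 0.652), and without replicate 2 it was 0.06 (adjusted p = 0.835). *Sphk2*, which overlaps *Dbp* by 737 bases on the opposite strand, changed by -0.08 on the log2 scale (adjusted p = 0.741) in *D/F* cells and by -0.11 (adjusted p = 0.185) in *T/F* cells.

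*Bhlhe40*, which encodes the E-box repressor DEC1 and also acts in activated immune cells, lies at chr6:108660629-108666925 on the plus strand. It was 105, 95.3 and 78.6 TPM with DMSO and 78.1, 35.6 and 44.7 TPM with CCS1477 in *D/F*. The *T/F* mice had 44.4, 85.2 and 101 TPM with DMSO and 22.6, 53.2 and 71.2 TPM with CCS1477. The mice of a genotype differed widely with the same treatment, and *T/F* replicate 1 was lowest of the 6 mice under both. Within a mouse the ratio of CCS1477 to DMSO ranged from 0.373 to 0.745. *Bhlhe40* fell over both genotypes by 0.79 on the log2 scale (SE 0.30, limma adjusted p = 0.0494). That call was lost without *D/F* replicate 1 (-0.86, adjusted p = 0.0593), *D/F* replicate 2 (-0.66, adjusted p = 0.123), *D/F* replicate 3 (-0.78, adjusted p = 0.11) or *T/F* replicate 2 (-0.81, adjusted p = 0.098). With all mice the call was also lost with a pseudocount of 0.1 TPM (-0.80, limma adjusted p = 0.0561) or quantile normalization (-0.76, adjusted p = 0.0523). With the mouse as a block *Bhlhe40* fell over both genotypes (adjusted p = 0.00145), in *D/F* (-0.87, adjusted p = 0.0384) and in *T/F* (-0.70, adjusted p = 0.00977), where the fits without the block gave adjusted p = 0.114 and 0.299.

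**Figure D2:**
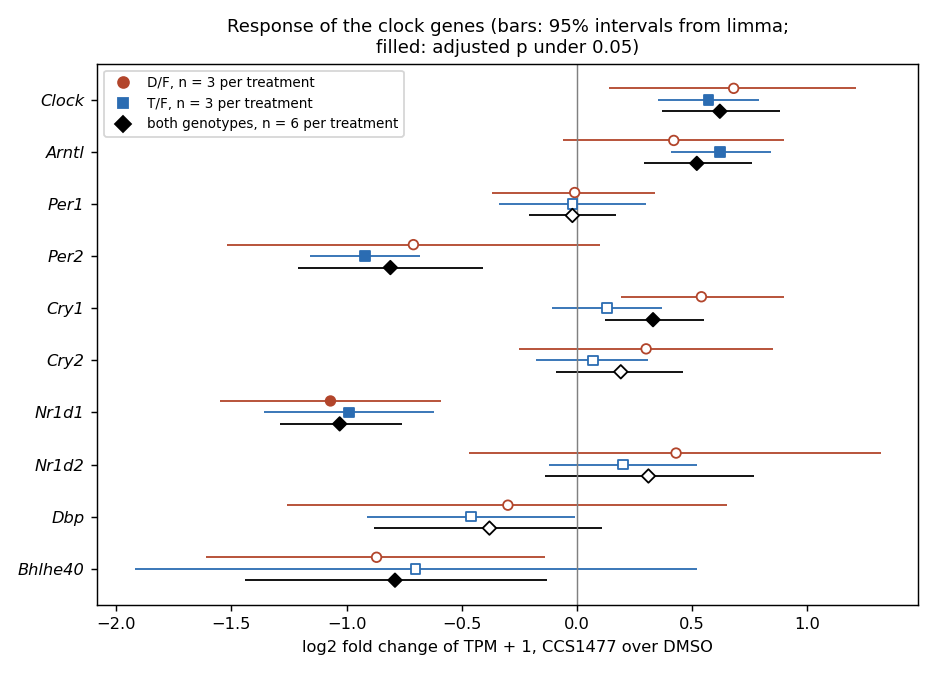
Log2 fold change of TPM + 1 with CCS1477 over DMSO (x axis) for each clock gene (y axis), with 95% intervals from limma without the mouse as a block, for *D/F* (red circles), *T/F* (blue squares) and both genotypes (black diamonds). Filled symbols passed at an adjusted p under 0.05, with *Nr1d1* filled in all 3 comparisons and *Per1* centred near 0.

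Counted within a genotype, 1 of 10 members passed in *D/F* (*Nr1d1*, lower) and 4 of 10 in *T/F* (*Clock* and *Arntl* higher, *Per2* and *Nr1d1* lower), where 43.4% of 15256 genes passed (25.8% higher and 17.6% lower). With the mouse as a block, 6 members passed in *D/F* (*Clock*, *Arntl* and *Cry1* higher, *Per2*, *Nr1d1* and *Bhlhe40* lower), against 39.3% of genes (21.4% higher and 18% lower). With the block in *T/F* 6 members also passed (*Clock* and *Arntl* higher, *Per2*, *Nr1d1*, *Dbp* and *Bhlhe40* lower), against 54.1% of genes (31.2% higher and 22.9% lower). Above 2-fold with an adjusted p under 0.05, *Nr1d1* was called in *D/F*, where 7.28% of genes were, and no member in *T/F*, with or without the block, where 7.33% were without it. That *T/F* count depended on the pseudocount, since with 0.1 TPM, a combination tried after seeing the data, *Per2* (-1.15) and *Nr1d1* (-1.37) were above 2-fold, where 9.88% of genes were, and without *T/F* replicate 1 *Nr1d1* was above it with 1 TPM, where 6.7% were. The *D/F* count was 3 (*Clock*, *Per2* and *Nr1d1*) without replicate 2, where 24.6% of genes passed. It was 0 without replicate 1 or replicate 3, where no gene passed, with 2 and 1 members at an unadjusted p under 0.05 beside 16% and 15% of genes. The treatments did not overlap for 5 members in *D/F* (*Clock*, *Arntl*, *Cry1*, *Nr1d1* and *Bhlhe40*), against 36.6% of genes, and for 5 in *T/F* (*Clock*, *Arntl*, *Per2*, *Nr1d1* and *Dbp*), against 56.1%. The members had a median log2 fold change of 0.14 for *D/F* and 0.02 for *T/F*, beside 0.06 and 0.07 over all genes tested.

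Ratios of 2 members within a library do not depend on the scaling of that library, and those of *Nr1d1* to *Arntl* and of *Per2* to *Cry1* were chosen after their values were seen and are given without a test. The *Nr1d1* to *Arntl* ratio, of a repressor and its target gene, was 0.485, 0.688 and 0.795 with DMSO and 0.202, 0.180 and 0.157 with CCS1477 in *D/F*. For *T/F* it was 0.472, 0.655 and 0.519 with DMSO and 0.167, 0.130 and 0.0887 with CCS1477. The *Per2* to *Cry1* ratio, of partners in the repressor complex, was 0.293, 0.688 and 0.286 with DMSO and 0.120, 0.213 and 0.121 with CCS1477 in *D/F*. For *T/F* mice this ratio was 0.277, 0.235 and 0.316 with DMSO and 0.0984, 0.101 and 0.136 with CCS1477. Both ratios were lower with CCS1477 in all 6 mice, and the highest CCS1477 value lay below the lowest DMSO value in each genotype.

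**Figure D3:**
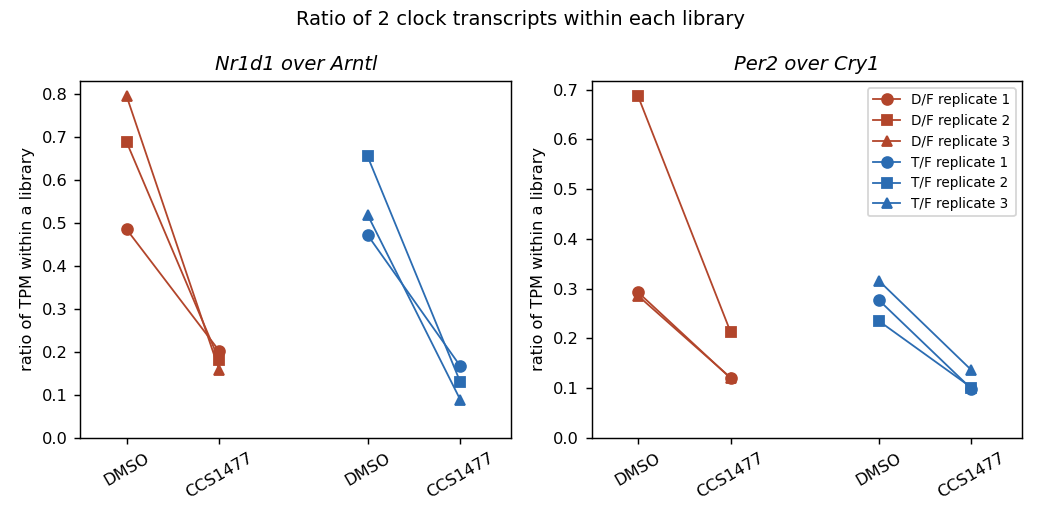
Ratio of TPM within a library (y axis, from 0) for *Nr1d1* over *Arntl* (left) and *Per2* over *Cry1* (right) with DMSO and CCS1477, with a line per mouse, *D/F* red and *T/F* blue. All lines descend, and the CCS1477 values of *Nr1d1* over *Arntl* lie between 0.0887 and 0.202.

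No member's response was shown to differ between the genotypes. The interaction term of a limma fit with 4 group means passed for 0 of 15583 genes, and 659 genes (4.23%) had an unadjusted p under 0.05. With the mouse as a block it also passed for 0 genes, with 2293 (14.7%) at an unadjusted p under 0.05. Of the members, *Cry1* alone had an unadjusted p under 0.05, with a response in *T/F* minus *D/F* of -0.42 on the log2 scale (SE 0.16, 95% interval -0.77 to -0.06, adjusted p = 1, or 0.245 with the block). The intervals of the other members were wide, from -0.48 to 0.64 for *Nr1d1* and from -1.21 to 1.55 for *Bhlhe40*, so responses of equal size were not shown either.

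Between the genotypes, *T/F* and *D/F* cells were first compared with DMSO. No member passed, beside 5 of 15265 genes (0.0328%), and 2 members had an unadjusted p under 0.05 where 6.15% of genes did. These were *Per1*, lower in *T/F* at a log2 difference of -0.28 (limma adjusted p = 0.757), and *Nr1d1*, at -0.46 (adjusted p = 0.691), the same 2 members whose genotypes did not overlap, against 12.6% of genes. With CCS1477, where the dose differed, 9 of 10 estimates were below 0, and with DMSO 8 of 10 were. The median log2 difference of the members was -0.31 with DMSO and -0.37 with CCS1477, beside -0.04 and -0.03 for all genes tested. How many of all genes were below 0 was not counted. With CCS1477 no member passed, beside 5 of 15199 genes (0.0329%). An unadjusted p under 0.05 was found for 5 members, *Per2* (-0.60), *Cry1* (-0.37), *Cry2* (-0.46), *Nr1d2* (-0.61) and *Dbp* (-0.51), where 10.8% of genes had one. The genotypes with CCS1477 did not overlap for *Per2*, *Cry1*, *Cry2* and *Nr1d2*, against 20.3% of genes. *D/F* replicate 2 was the highest of the 6 mice for 7 members with DMSO and for 7 with CCS1477, beside 50.6% and 47.8% of all genes. Without it the *Per2* difference was -0.09 with DMSO, from -0.39, and those of *Per1* and *Nr1d1* were -0.24 and -0.34. With CCS1477 the differences without it were -0.34 for *Per2*, -0.33 for *Cry1*, -0.29 for *Cry2*, -0.39 for *Nr1d2* and -0.43 for *Dbp*.

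Compared per transcript length, *Bhlhe40* had the highest level of the members in all 4 groups and *Nr1d1* the lowest. With DMSO in *D/F*, *Bhlhe40* was 92.9 ± 13.3 TPM (SD, n = 3), followed by *Cry2* at 21.4 ± 4.61, *Cry1* at 19.0 ± 2.01 and *Per1* at 18.9 ± 0.943 TPM, which did not differ beyond their spread. *Clock* came next at 9.35 ± 2.05 TPM, and it did not differ beyond the spread from *Nr1d2* (8.99 ± 4.74), *Arntl* (8.99 ± 1.76), *Per2* (7.74 ± 3.39) or *Dbp* (7.66 ± 5.07). *Nr1d1* at 5.77 ± 1.12 TPM did not differ from *Dbp* beyond the spread, and its highest library, at 6.99 TPM, was just under the lowest *Clock* library, at 7.00 TPM. With CCS1477 in *T/F*, where the spread was smaller, *Clock* at 16.3 ± 0.23 TPM stood beside *Per1* at 15.3 ± 2.75 and above *Arntl* at 11.5 ± 0.195 TPM. Below them *Nr1d2* was 7.19 ± 0.655, *Dbp* 3.49 ± 0.807, *Per2* 2.38 ± 0.239 and *Nr1d1* 1.48 ± 0.459 TPM.

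The gene with the most similar pattern to each member, by Pearson r of log2(TPM + 1) over 12 libraries among genes averaging 5 TPM or more, was as follows. For the activators it was *Ppp2r5d* with *Clock* (0.983) and *Trim56* with *Arntl* (0.969). For the repressors it was *Kif17* with *Per2* (0.98), *Fam114a1* with *Per1* (0.936), *Tnk2* with *Cry1* (0.933) and *AU022252* with *Cry2* (0.945). For the receptors it was *Llph-ps2*, a pseudogene, with *Nr1d1* (0.966) and *Ss18* with *Nr1d2* (0.986), and for the others *Surf1* with *Dbp* (0.924) and *Tnfrsf18* with *Bhlhe40* (0.867). The 12 points share treatment and mouse.

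The wider clock list held other core components, ROR and D-box factors, kinases, protein turnover, cofactors and outputs, and 34 of its genes had a row. In *D/F* 4 of 34 passed, 3 higher and 1 lower, and in *T/F* 17 of 33 passed, 14 higher and 3 lower, beside 11.6% and 43.4% of all genes. With the mouse as a block 15 (13 higher, 2 lower) and 22 (15 higher, 7 lower) passed, beside 39.3% and 54.1%. The *D/F* count was 0 without replicate 1 or replicate 3 and 10 without replicate 2, and the *T/F* count was 8 without replicate 1 and 9 without replicate 2, where 0%, 0%, 24.6%, 22.8% and 20.9% of all genes passed in that order. The list had a median log2 fold change of 0.17 for each genotype. *Npas2*, a relative of *Clock*, was too low to test in *T/F*.

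Of the 12 cofactors, 9 passed in *T/F*, 8 higher and 1 lower, and 2 in *D/F*, both higher, beside 43.4% and 11.6% of all genes. With the mouse as a block 9 (8 higher, 1 lower) and 7 (6 higher, 1 lower) passed, beside 54.1% and 39.3%. *Ep300*, which encodes p300 itself, was 53.5 to 61.8 TPM with DMSO and 94.4 to 97.6 TPM with CCS1477 in *D/F* and rose by 0.70 (log2, SE 0.14, limma adjusted p = 0.0294). Its *T/F* levels were 57.9 to 64.2 and 104 to 112 TPM, and it rose by 0.81 (SE 0.07, adjusted p = 0.00084). *Sirt1*, the deacetylase that acts on BMAL1 and PER2, rose by 0.76 in *D/F* (SE 0.17, adjusted p = 0.0358) and by 0.48 in *T/F* (SE 0.06, adjusted p = 0.00223). *Crebbp*, which encodes CBP, rose in *T/F* by 0.81 (SE 0.06, adjusted p = 0.00051), with 0.76 in *D/F* (adjusted p = 0.0562, or 0.00864 with the block), and was named after its values were seen. Without *D/F* replicate 1 or replicate 3 no gene passed in *D/F*, and the estimates were 0.71 and 0.63 for *Ep300* (adjusted p = 0.281 and 0.321) and 0.74 and 0.71 for *Sirt1* (adjusted p = 0.278 and 0.34).

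Of the 5 kinases, *Gsk3b*, which phosphorylates several clock proteins, rose by 0.73 in *D/F* (SE 0.14, limma adjusted p = 0.0256) and by 0.71 in *T/F* (SE 0.07, adjusted p = 0.00109). The kinases that passed numbered 1 in *D/F* and 2 in *T/F*, where *Prkaa1* was the other, beside 11.6% and 43.4% of all genes. In the fits with the mouse as a block there were 3 in each genotype, *Gsk3b*, *Prkaa1* and *Csnk1d*, all higher. With the block 39.3% of all genes passed in *D/F* (21.4% higher) and 54.1% in *T/F* (31.2% higher). Of the 5 protein turnover genes 0 passed in *D/F*, beside 11.6% of all genes (1 at an unadjusted p under 0.05, beside 30.4%). In *T/F* 3 passed, beside 43.4%, all higher, among them the ubiquitin ligase gene *Btrc* (0.60). With the block 3 rose in each genotype, *Btrc* among them, where 21.4% of all genes rose in *D/F* and 31.2% in *T/F*. *Usp2*, which encodes a ubiquitin protease, fell in *T/F* with the block (-0.35, limma adjusted p = 0.0197), where 22.9% of all genes fell. Apart from *Gsk3b* these genes were named after their values were seen. *Wee1*, a cell cycle kinase gene under clock control, was 49.3, 64.7 and 50.2 TPM with DMSO and 27.9, 29.0 and 33.8 TPM with CCS1477 in *D/F*, and it fell by 0.83 (SE 0.17, adjusted p = 0.0332). The *T/F* values were 55.2, 47.0 and 56.1 TPM and 36.4, 35.2 and 38.6 TPM, and it fell by 0.51 (SE 0.09, adjusted p = 0.00668). Without *D/F* replicate 1 or replicate 3 the *D/F* estimates were 0.78 and 0.67 for *Gsk3b* (adjusted p = 0.244 and 0.308) and -0.85 and -0.97 for *Wee1* (adjusted p = 0.258 and 0.256), in fits where no gene passed. The *T/F* call of *Wee1* was lost without *T/F* replicate 1 in a fit without the block (-0.47, adjusted p = 0.0754). With all mice and the block its limma adjusted p in *T/F* was 0.00582.

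*Rora*, which encodes a ROR receptor that activates at the elements where REV-ERB represses, had the largest estimate of the list in both genotypes. It was 1.52, 2.65 and 0.518 TPM with DMSO and 6.52, 8.68 and 3.54 TPM with CCS1477 in *D/F*. *T/F* libraries had 0.747, 1.19 and 1.16 TPM with DMSO and 2.35, 3.52 and 3.68 TPM with CCS1477. The treatments did not overlap in either genotype. *Rora* rose in *T/F* by 1.03 on the log2 scale (SE 0.16, limma adjusted p = 0.0044, or 0.00207 with the mouse as a block). Without the block the call was lost without replicate 2 (1.03, adjusted p = 0.0538). The *D/F* estimate was 1.52 (SE 0.40, adjusted p = 0.0593, or 0.00473 with the mouse as a block), and it passed without *D/F* replicate 2 (1.58, adjusted p = 0.0487). *Per3*, the remaining period gene, named after its values were seen, fell in *T/F* by 0.67 (SE 0.17, adjusted p = 0.0229, or 0.00416 with the mouse as a block). In fits without the block that call was lost without any 1 of the 3 mice (adjusted p = 0.051 to 0.0944 from limma). In *D/F* its estimate was -0.44 (adjusted p = 0.373, or 0.0536 with the block), and it passed without *D/F* replicate 2 (-0.56, adjusted p = 0.046).

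**Figure D4:**
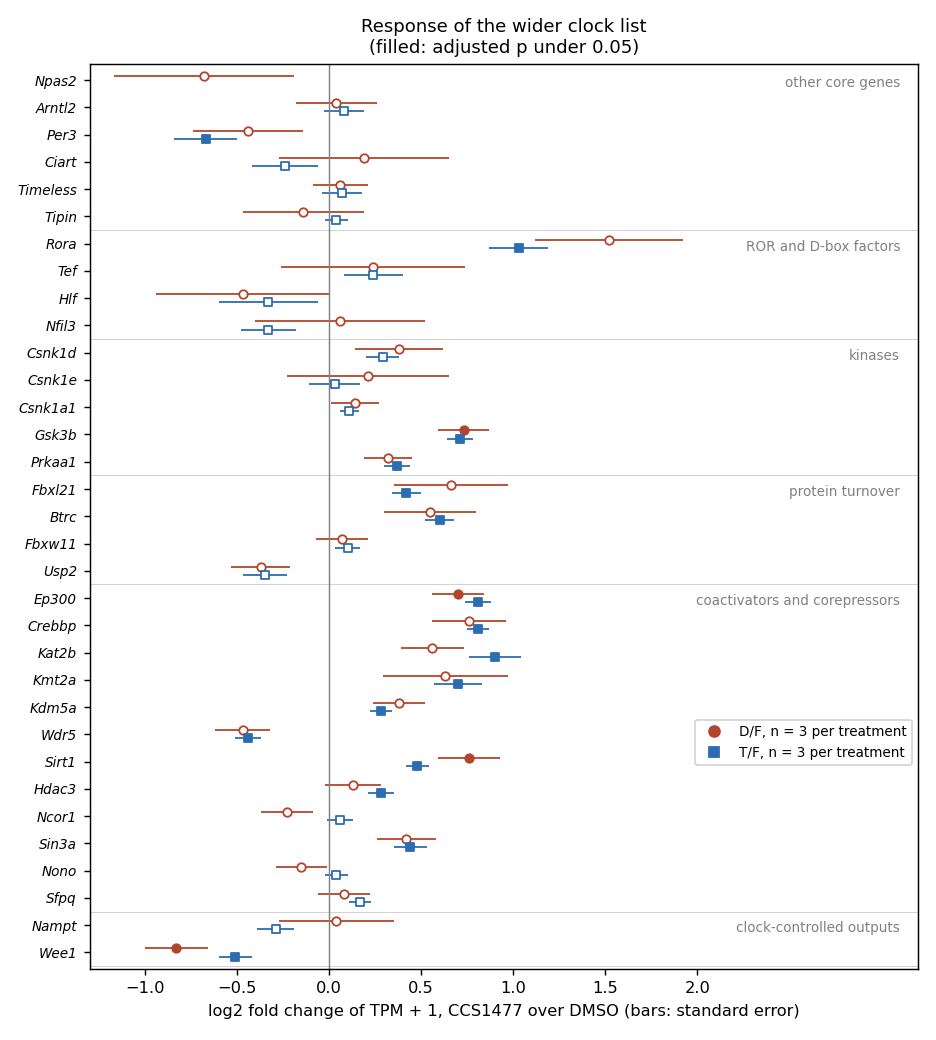
Log2 fold change of TPM + 1 with CCS1477 over DMSO (x axis, bars are standard errors from limma) for genes of the wider clock list (y axis, grouped by role), in *D/F* (red circles) and *T/F* (blue squares). Filled symbols passed at an adjusted p under 0.05, and *Rora* lies farthest right at 1.52 and 1.03, while *Wee1* lies left of 0 at -0.83 and -0.51.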

How the data were processed

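Gene-level TPM, labelled as Kallisto output, were deposited by the authors, who processed the reads in AltAnalyze with mm10 in the submitters' notes. Annotation, settings and use of the strand are not given in the sources used here, and the records name both ribosome depletion and a stranded mRNA kit. The 12 columns were matched to samples by mouse, genotype and treatment. Each of the 15651 genes reaches 2.00 TPM in at least 1 library. TPM keeps no read numbers, so precision is the spread between 3 mice per group.

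Tests used limma 3.58.1 in R 4.3.3 (eBayes without trend) on log2(TPM + 1), two-sided, with Benjamini-Hochberg adjustment over all genes whose mean reached 1 TPM in a group compared. The pseudocount makes changes of low genes smaller. Calls were made at an adjusted p under 0.05, and separately above 2-fold. Treatments were compared per genotype and over both with genotype as a covariate, the difference between responses by an interaction term, and the genotypes within each treatment.

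CCS1477 and DMSO libraries with the same number come from 1 mouse by the sample records. After subtracting group means, the libraries of a mouse correlated at 0.539, 0.669 and 0.541 for the *D/F* mice, at 0.383, 0.354 and 0.496 for the *T/F* mice, and at most at 0.141 between mice of a genotype, so the numbers pair the samples. The fits with the mouse as a block are given where they change the call of a gene described or a count by over 1.5 times. Replicates correlated at 0.947 to 0.991 and no pair was identical.

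Named were all 10 members, the gene most like each, *Thra*, and those of the wider list that passed the same way in both genotypes, or in 1 genotype with a log2 fold change over 1 in size. Some genes of the lists are not reported here. The members are named without a threshold on values, but they and the lists were chosen with earlier results of these data known. Positions are from GENCODE vM21 (GRCm38) and promoters from RefSeq (GRCm38.p6). The fits were run on simulated data in which the libraries of a mouse were independent, so that run does not check the pairing by mouse. Alternatives changed the pseudocount (0.1), the filter (none, or 5 TPM), the scaling (median gene, or quantiles), the trend in eBayes, the block, the groups sharing a fit (all 4) and the mice (each left out). Fits with a mouse left out had no block unless the block is named.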

Additional observations from a re-analysis of the deposited data

Results flagged for a closer look

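*Ciart*, a repressor of the CLOCK and BMAL1 pair from the wider clock list, was higher with CCS1477 in all 3 *D/F* mice and lower in all 3 *T/F* mice. With DMSO it was 15.5, 5.81 and 6.61 TPM in *D/F* replicates 1, 2 and 3, and with CCS1477 17.4, 6.27 and 8.59 TPM. The *T/F* replicates had 5.36, 7.16 and 5.97 TPM with DMSO and 4.29, 6.69 and 4.45 TPM with CCS1477. The *T/F* response minus that of *D/F* was -0.43 on the log2 scale (SE 0.54, adjusted p = 1 from limma, or 0.231 with the mouse as a block), so the difference did not pass. Neither did the response in *D/F* (0.19, adjusted p = 0.823 from limma, or 0.178 with the block) or in *T/F* (-0.24, adjusted p = 0.322, or 0.0601 with the block).

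*Nono*, an RNA-binding partner of PER proteins, was lower with CCS1477 in all 3 *D/F* mice and higher in all 3 *T/F* mice. Neither response passed, at -0.15 in *D/F* (adjusted p = 0.5 from limma, or 0.23 with the block) and 0.04 in *T/F* (adjusted p = 0.569, or 0.474 with the block). With DMSO it was 362, 341 and 362 TPM in *D/F*, and with CCS1477 308, 307 and 344 TPM. The *T/F* replicates had 339, 337 and 354 TPM with DMSO and 354, 349 and 359 TPM with CCS1477. The difference between the responses was 0.20 (SE 0.12, adjusted p = 1 from limma, or 0.358 with the block), and it did not pass either.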

How the results depend on the processing

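With 3 mice a group and no read numbers, the spread between mice limits the *D/F* fits without the block. The count of members passing in *D/F*, 1 as reported, was 2 with a filter at 5 TPM (*Cry1* and *Nr1d1*, beside 17.1% of all genes), 2 with quantile normalization (*Per2* and *Nr1d1*, 18.4%), 3 in a shared fit of 4 groups (*Clock*, *Cry1* and *Nr1d1*, 31.9%), 6 with the replicate block (39.3%), and 0 to 3 when 1 mouse was left out (0% to 24.6%). In *T/F* the count of 4 became 0, beside 7.33% of all genes, when a change above 2-fold was required as well. It was 2, *Per2* and *Nr1d1*, beside 9.88%, if the pseudocount was also 0.1, a combination chosen after seeing the data. When 1 mouse was left out, the *T/F* count was 3 to 4, beside 20.9% to 33.7% of all genes. Over both genotypes the count of 6 was 4 to 7 under the alternatives, beside 36.3% to 60.3% of all genes. It was 7 with the replicate block (60.3%). With the block and without *D/F* replicate 2, a setting added once the data had been seen, it was also 7 (60.3%). In *T/F* the shared fit of 4 groups also gave 4 members, beside 24.3% of all genes. The shared fit has more residual degrees of freedom and the filter fewer genes, and the cause of these shifts was not tested. The filter at 5 TPM left *Nr1d1* untested in *T/F* and 8 members tested between genotypes with CCS1477. Each genotype comparison has different mice on its 2 sides and no block.

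The estimates that turned sign did not pass in either form. When 1 mouse was left out, *Dbp* in *D/F* ranged from -0.58 to 0.06 (without *D/F* replicate 2) and *Per1* from -0.08 to 0.04 (without *D/F* replicate 3). *Per1* ranged from -0.13 to 0.05 in *T/F* (0.01 and 0.05 without replicates 1 and 3) and from -0.06 to 0.01 over both genotypes (0.00 and 0.01 without *D/F* and *T/F* replicate 3). *Cry2* in *T/F* was -0.01 with median-gene rescaling and with quantile normalization. The difference between responses was -0.02 for *Nr1d1* with a pseudocount of 0.1, and with 1 mouse left out it ranged from -0.11 to 0.26 for *Nr1d1* (-0.11 without *T/F* replicate 1, -0.03 without *D/F* replicate 3), from -0.12 to 0.07 for *Per1* (0.05, 0.02 and 0.07 without *D/F* replicate 1, *T/F* replicate 1 and *T/F* replicate 3), from -0.53 to 0.12 for *Dbp* (0.12 without *D/F* replicate 1) and from -0.09 to 0.40 for *Bhlhe40* (-0.09 without *D/F* replicate 2). Between genotypes with DMSO, *Cry1* ranged from -0.02 to 0.12 and *Dbp* from -0.60 to 0.09 (turned without *D/F* replicate 2), and *Bhlhe40* from -0.58 to 0.00 (without *T/F* replicate 1). With CCS1477, *Bhlhe40* ranged from -0.51 to 0.30 (0.14 and 0.30 without *D/F* and *T/F* replicate 1), *Clock* from -0.06 to 0.19 and *Arntl* from -0.18 to 0.02 (turned without *D/F* replicate 2).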

Other observations

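The PAR-bZIP factors of the D-box, relatives of *Dbp*, stood apart in 1 mouse, *D/F* replicate 2, and were named after their values were seen. Genes outside this family also stood apart in that mouse. This mouse had the highest DMSO level of the 6 mice in 50.6% of 15219 genes. Its DMSO library also had the highest *Kit*, at 149 TPM, and the lowest *Mpo*, at 1160 TPM. The part of these wider differences in the values that follow was not tested. With DMSO, *Tef* was 44.5 TPM and *Hlf* 44.4 TPM in *D/F* replicate 2, and 13.6 to 20.8 TPM and 8.20 to 14.5 TPM in the other 5 mice. *Per3* was 20.8 TPM in that mouse and 9.93 to 15.3 TPM in the others. *Nfil3*, which represses at the D-box and was also named after its values were seen, was lowest in the same mouse, at 17.3 TPM, and 33.8 to 48.7 TPM in the others. Outside the family, *Csnk1e* was 101 TPM in that mouse with DMSO and 42.2 to 60.3 TPM in the others. *Nr1d2* was 14.4 TPM there and 5.49 to 7.48 TPM in the others. Of the 34 genes of the wider list with a row, 19 were highest in *D/F* replicate 2 with DMSO. With CCS1477, *Hlf* was 21.1 TPM in *D/F* replicate 2 and *Tef* 43.3 TPM. *Hlf* was lower with CCS1477 in all 6 mice, with ratios of CCS1477 to DMSO from 0.476 to 0.886, and its change passed in *T/F* with the mouse as a block (-0.33, limma adjusted p = 0.0175) but not without it (adjusted p = 0.365). In *D/F* it was -0.47 (adjusted p = 0.552, or 0.152 with the block), and over both genotypes it was -0.40 (adjusted p = 0.282, or 0.023 with the block).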
